A study of Mus musculus with 70 samples.

Results

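Newborn neurons (NBN) and neural stem cells (NSC) of the mouse dorsal cortex were compared at E15.5 (stages are given as embryonic days, E) by RNA sequencing of sorted cells. The members were 8 libraries of the 70 in the series, 4 of NBN and 4 of NSC, taken by the cell type and stage in their labels. Genes entered the comparison when their mean reached 1 TPM (a transcript's length-corrected share of its library) in either group, which kept 13656 of 23078 genes. NSC were green fluorescent cells of Hes5::GFP embryos, in which the promoter of a Notch target gene drives the reporter. NBN were green fluorescent cells of Tbr2::GFP embryos, a line in which the gene of Tbr2, named Eomes, marks basal progenitors and their recent daughters. Basal progenitors (BP) of the same Tbr2::GFP line and stage, with 4 libraries, served as a reference point. All were wild type on a C57Bl/6 background, and the labels name no treatment. Reporter line and cell type coincided between NBN and NSC and cannot be told apart. The sources used here do not say by which gate NBN were parted from BP. Nor do they state if each replicate is another animal, so that p-values rest on a spread that may be technical.

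In the embryonic cortex, radial glial stem cells line the ventricle and divide there, held in the stem cell state by Notch signalling, in which ligands on neighbouring cells activate receptors and, through Rbpj, the repressors Hes1 and Hes5. Some daughters become basal progenitors, which express Eomes, move away from the ventricle and usually divide once more into neurons. Newborn neurons leave the cell cycle, migrate outwards and start to make the tubulins, adhesion molecules, receptors and synaptic proteins of a neuron, while they take the identity of a cortical layer.

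The promoters of 3 mitosis genes and of a Notch target are shown. The mitosis genes and most Notch effectors fell in NBN, and short motifs are known for regulators of each group, though not every member has them. Each is the 250 bases before the RefSeq start site (GRCm38.p6), written 5′ to 3′ on the strand of the gene. In the first 3, capitals mark CCAAT, the box bound by NF-Y, and TTTGAA, the core of the cell cycle genes homology region, on either strand. In the last, capitals mark GTGGGAA, the core of the sites bound by Rbpj, on either strand.
Cdk1 (chr10:69352913-69353162, minus strand): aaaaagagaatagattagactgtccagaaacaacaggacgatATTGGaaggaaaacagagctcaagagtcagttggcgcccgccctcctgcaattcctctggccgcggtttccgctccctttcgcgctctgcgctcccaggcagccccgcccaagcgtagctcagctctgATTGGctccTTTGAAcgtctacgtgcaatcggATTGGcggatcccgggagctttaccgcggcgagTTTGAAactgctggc
Top2a (chr11:99024190-99024439, minus strand): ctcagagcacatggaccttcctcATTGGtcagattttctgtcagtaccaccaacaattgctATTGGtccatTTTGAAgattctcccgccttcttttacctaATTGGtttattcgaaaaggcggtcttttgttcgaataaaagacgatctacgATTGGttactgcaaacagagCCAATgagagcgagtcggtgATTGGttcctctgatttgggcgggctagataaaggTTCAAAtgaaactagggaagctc
Cdc20 (chr4:118437344-118437593, minus strand): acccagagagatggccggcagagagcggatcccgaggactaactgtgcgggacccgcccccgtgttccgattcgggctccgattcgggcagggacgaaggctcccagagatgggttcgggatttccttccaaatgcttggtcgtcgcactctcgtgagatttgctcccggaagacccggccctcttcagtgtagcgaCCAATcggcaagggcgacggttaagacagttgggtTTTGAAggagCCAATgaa
Hes5 (chr4:154960673-154960922, plus strand): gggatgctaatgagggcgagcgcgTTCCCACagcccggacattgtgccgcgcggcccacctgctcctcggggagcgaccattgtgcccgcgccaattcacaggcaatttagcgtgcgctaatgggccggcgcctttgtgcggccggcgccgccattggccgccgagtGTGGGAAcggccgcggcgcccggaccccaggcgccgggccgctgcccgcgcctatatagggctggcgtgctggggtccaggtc
Of 26 genes in a list of mitosis and chromosome segregation, 22 had a promoter in the table. CCAAT stood in 18 of the 22, against 34.5% of all 27025 promoters of the same length, and TTTGAA in 8 of the 22, against 16.3% of all. Both motifs stood in 8 of the 22, against 5.73% of all, and the 3 shown are among these 8. GTGGGAA stood in 5.41% of all promoters and in 2 of 7 from a list of Notch effectors. That of Hes5 has it at 226 and 83 bases before the start. In the promoters shown no marked motif overlaps another, and a match describes letters, not a bound site.

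The libraries were alike in kind. Between 16441 and 16978 genes were listed above 0, no 2 libraries held identical values, and log2(TPM + 1) values correlated at 0.986 to 0.992 among NSC, 0.992 to 0.994 among NBN and 0.924 to 0.956 between them, across genes, which are not independent replicates. TPM keep no sequencing depth, so depth is unknown. All 8 samples were labelled female, yet summed Y-linked transcripts (Ddx3y, Eif2s3y, Kdm5d and Uty) reached 72.4 to 93.4 TPM in 6 libraries. NBN replicate 1 had 0.283 TPM of them with Xist, the transcript of the inactive X chromosome, at 217.6 TPM. NSC replicate 2 had both, at 11.9 TPM of Y-linked transcripts and 103.2 TPM of Xist. NBN replicate 2, among the 6, also held 8.14 TPM of Xist, while the rest of the 6 held 0.291 to 1.65 TPM. NSC replicates 1 and 4 also stood apart from 2 and 3: they were the 2 highest NSC libraries in 67.3% of the genes higher in NBN, against 19.2% of all genes tested. Replicates 2 and 3 were the 2 highest in 47.9% of the genes lower in NBN, against 19.3% of all. That split was noticed after the values were seen, and its part in the results was not tested.

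Of the 13656 genes tested with limma, 1443 (10.6%) passed a Benjamini-Hochberg adjusted p below 0.05 with an absolute log2 difference of at least 1. The larger share was lower in NBN: 997 genes (7.3%) fell and 446 (3.27%) rose. Falls were also deeper. Among lower genes 283 differed by 2 or more on the log2 scale, among higher genes 23. The median over all tested genes was 0.00. In lower genes the NBN mean was typically 0.245 of the NSC mean (median of the ratios), and in higher genes the NSC mean was still 0.373 of the NBN mean. The 4 values of a group did not overlap those of the other in 7190 genes (52.7%), among them 1428 of the 1443 called. Genes nearest to the minimum of 1 TPM on the higher side were Slco2a1 at 1.0001 TPM inside it and Cdnf at 0.9999 TPM outside it. Without the 2 libraries with most Xist, 1393 genes passed.

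**Figure D1:**
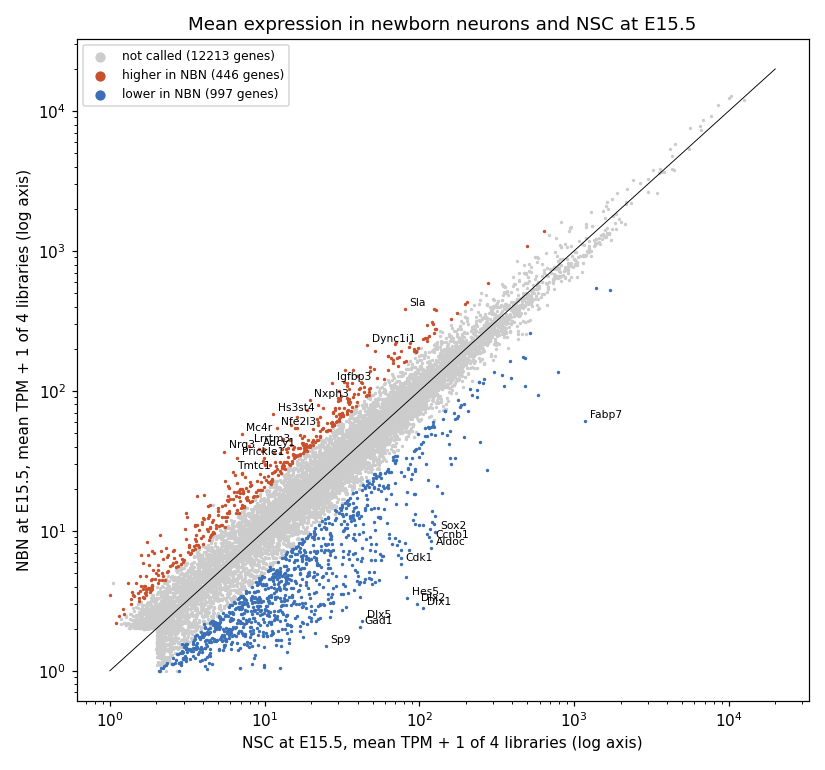
Mean TPM + 1 of 4 NBN libraries (y axis, log scale) against 4 NSC libraries (x axis, log scale) at E15.5 for 13656 genes, coloured by call, with the line of equal means and 23 of the 24 genes chosen for the largest differences named. The 997 lower genes reach farther from the line than the 446 higher genes.

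Most genes listed here as Notch effectors, among which Id genes were counted, fell in NBN, but not the most abundant one, Id2. Of 11 tested effectors, a list of Hes, Hey, Id and Nrarp genes with Sox9, 9 fell and none rose (median difference -1.85, against 0.00 over all genes, of which 7.3% fell). Sox9 and Id1 are also counted in the radial glial and the BMP list. Hes5, the repressor whose promoter drives the NSC reporter (chromosome 4 at 154960923 to 154962371, plus strand, GRCm38), stood at 88.0, 88.4, 87.0 and 66.9 TPM in NSC replicates 1 to 4 and at 1.94, 2.72, 2.36 and 2.12 TPM in NBN. The NSC libraries were all far above the NBN libraries (-4.66 ± 0.19, adjusted p = 1.41e-26). Since that gene was used to sort, its difference checks the sort. Hes1, the related repressor, stood at 12.04, 27.1, 21.2 and 15.2 TPM in NSC and 0.983, 1.57, 2.04 and 0.992 TPM in NBN, without overlap (-3.01 ± 0.24, adjusted p = 2.24e-15). Nrarp, a feedback inhibitor of Notch, fell from 50.4 ± 10.6 to 6.16 ± 0.630 TPM (mean ± SD, 4 libraries each; log2 difference -2.83 ± 0.16 SE). Hes6 (-0.65), which antagonises Hes1, and Id2 (0.997), an inhibitor of bHLH factors, did not pass. Id2 was the most abundant of the 11, at 361.6 to 509.7 TPM in NSC and 836.6 to 870.4 TPM in NBN. It lay just under the minimum, and 1 gene of the list rose after median ratio scaling or quantile normalization and without NBN replicate 1 or 2 or NSC replicate 1 or 4. The summed level of the list was higher in NBN, at 1020.4 to 1064 TPM, than in NSC, at 959.6 to 1009.5 TPM, while BP had 811 to 858 TPM. Most of the NBN sum was Id2, so the sum does not show the level of the other members.

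Receptors and ligands of the pathway fell in part, beside 7.3% of all tested genes that fell and 3.27% that rose. Of 15 receptors and modulators, 6 fell, led by Lfng, the glycosyltransferase that tunes receptor choice (-3.22 ± 0.20), Notch1 (-2.72 ± 0.18) and Notch2 (-2.17 ± 0.17). Notch1 stood at 42.2, 44.0, 62.5 and 39.7 TPM in NSC and 4.96, 6.39, 6.59 and 7.05 TPM in NBN, so that every NBN library was below every NSC library. Of 8 ligands and their regulators, Jag1 (-1.14 ± 0.14) and Dlk1 (-1.16 ± 0.37), a ligand-like membrane protein, fell. Both were low, Jag1 at 5.58 to 7.94 TPM and Dlk1 at 2.48 to 6.06 TPM in NSC. The highest difference in the ligand list was 0.957, under the minimum. At a pseudocount of 0.1 TPM, after quantile normalization or without NSC replicate 1, 1 ligand gene rose. The ligand list summed to 189.0 to 235.6 TPM in NSC and 201.5 to 246.3 TPM in NBN. Dll1, the main ligand of committed progenitors, stood at 38.1 to 47.2 TPM in NSC and 24.9 to 29.1 TPM in NBN, a difference of -0.71 ± 0.12 that is under the minimum of 1. Rbpj, the DNA binding partner of the receptors, was 78.3 to 94.7 against 53.7 to 62.4 TPM (-0.59 ± 0.09), also under it. Neither ligand call held at a pseudocount of 5 TPM, where the differences were -0.63 for Jag1 and -0.52 for Dlk1. The Dlk1 call was also lost without NSC replicate 1 (-0.97) or NBN replicate 3 (-0.95), and that of Jag1 after quantile normalization (-0.96).

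Radial glial genes fell almost throughout: 21 of 23 were lower in NBN and none was higher (median -2.94), where 7.3% of all tested genes were lower. The list includes Hes5, which was used to sort, and Sox9, both of which are also counted among the Notch effectors. Fabp7, the brain fatty acid binding protein, stood at 735, 966, 1779 and 1258 TPM in NSC and 54.6, 60.5, 60.8 and 64.3 TPM in NBN (-4.20 ± 0.24, adjusted p = 3.12e-21). NSC replicate 3 was the highest and replicate 1 the lowest, and both were more than 10 times any NBN library. Sox2, the stem cell transcription factor, stood at 144, 106, 142 and 110.3 TPM in NSC and 7.89, 8.77, 9.21 and 9.06 TPM in NBN (-3.69 ± 0.15). Sox9, a stem cell factor, fell as well (-2.94 ± 0.17). Pax6, which specifies cortical progenitors, stood at 72.7 to 114 against 9.72 to 15.4 TPM (-2.82 ± 0.17), and Aldoc, a glycolytic aldolase of radial glia, at 85.9 to 157 against 6.13 to 6.94 TPM (-3.94 ± 0.25). Falls were smaller for 2 abundant genes of the same cells. Vim, their intermediate filament, was still at 121 to 143 TPM in NBN, against 612 to 982 in NSC (-2.50 ± 0.17), and Slc1a3, a glutamate transporter, at 19.5 to 25.3 against 69.2 to 134 (-1.86 ± 0.17). The receptor phosphatase gene Ptprz1 (0.82) and Lrrn1 (0.75) did not pass. Of 15 apical polarity and junction genes 4 fell, among them Crb2, of the Crumbs complex (-1.93 ± 0.17), and Pard3, of the Par complex (-1.56 ± 0.13). Only 2 of the apical list fell at a pseudocount of 5 TPM.

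Genes of cell division were low in NBN across every phase listed. All 26 mitosis and chromosome segregation genes fell (median -3.09), 19 of 25 DNA replication genes fell (median -1.499) and 11 of 19 G1 regulators fell (median -1.40). None of the 3 lists held a gene that rose, while over all tested genes 7.3% fell and 3.27% rose. Summed over the mitosis list, NSC libraries reached 1332, 1249.6, 1728 and 1135 TPM in replicate order and NBN libraries 134.97, 145.2, 133 and 144.99 TPM. NSC replicate 3 was the highest of the 4, and every NSC library was far above NBN.
Cdk1, the mitotic kinase whose promoter is printed above, stood at 69.1, 70.3, 96.7 and 65.6 TPM in NSC and 4.36, 4.91, 4.81 and 4.98 TPM in NBN (-3.71 ± 0.17, adjusted p = 1.63e-24). Its partner Ccnb1, cyclin B1, stood at 97.6 to 157 against 5.99 to 8.68 TPM (-3.81 ± 0.19). Top2a, the topoisomerase that untangles replicated chromosomes (-3.65 ± 0.17), and Cdc20, the activator of the anaphase ligase (-3.55 ± 0.15), fell by like amounts. Mki67, a marker of cycling cells, was at 34.0 to 56.9 TPM in NSC and 3.21 to 4.42 TPM in NBN (-3.27 ± 0.23).
Replication genes included Tk1, thymidine kinase (-3.31 ± 0.18), and the helicase subunits Mcm3 (-3.01 ± 0.15) and Mcm2, which kept 13.0 to 15.7 TPM in NBN against 62.7 to 87.6 TPM in NSC (-2.16 ± 0.12). In G1, Ccnd2, cyclin D2, fell from 119 to 218 TPM in NSC to 28.9 to 34.7 TPM in NBN (-2.32 ± 0.20), Ccnd1, cyclin D1, had a difference of -1.40 ± 0.17, and Cdkn2c, an inhibitor of their kinases, one of -2.94 ± 0.19. Cdkn1c, the inhibitor that promotes cell cycle exit, overlapped between the groups, at 103, 103, 83.3 and 107 TPM in NSC and 93.3, 104.6, 104 and 95.5 TPM in NBN (difference 0.01 ± 0.14).

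Signalling pathways of progenitors also had more falls than rises, as did all tested genes (7.3% fell and 3.27% rose). In the Sonic hedgehog list 6 of 10 genes fell, including Smo, the signal transducer (-2.13 ± 0.11), and Gli3, its repressor-forming target factor (-2.81 ± 0.21). In the Hippo list 7 of 15 fell, including the coactivator Yap1 (-2.54 ± 0.18) and its target Cyr61 (-2.92 ± 0.27). In the Wnt list 10 of 20 fell and 1 rose. The falls included Tcf7l1, a transcription factor of the pathway (-2.45 ± 0.18), and the receptor Fzd8 (-1.60 ± 0.17). The gene that rose was the ligand Wnt7b, at 176, 166, 133 and 166 TPM in NSC and 299, 349, 336 and 316 TPM in NBN (1.02 ± 0.14). Its groups did not overlap, but the difference fell under 1 without NSC replicate 3 (0.93) or without NBN replicate 2 (0.98). Of 16 genes of FGF, EGF and ERK feedback, 6 fell, such as Fgf15 (-2.53 ± 0.34) and the neuregulin receptor Erbb4 (-2.45 ± 0.28), and Dusp6, an ERK phosphatase, rose from 10.1 to 16.6 TPM in NSC to 40.1 to 46.3 TPM in NBN (1.62 ± 0.17). Fgf15 was uneven in NSC, with 17.7 TPM in replicate 1 and 3.27 to 4.73 TPM in the others. Of 17 BMP and TGF beta genes 5 fell, such as Id1 (-1.85 ± 0.24), and the receptor Bmpr1b was called higher, at 6.05 to 8.89 TPM in NSC and 14.1 to 16.2 TPM in NBN, with a difference of 1.01. No gene of the list rose without NBN replicate 3, without NSC replicate 2, without the 2 libraries with most Xist or at a pseudocount of 5 TPM, while 2 rose after median ratio scaling or quantile normalization and without NBN replicate 2 or NSC replicate 1. At a pseudocount of 5 TPM the falls were 5 in the Wnt list, 4 in the Hippo list and 3 in the BMP list.

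Basal progenitor genes were lower in NBN than in NSC, although NBN and not NSC came from the Tbr2::GFP line. Of 14 genes 12 fell and none rose (median -1.47), against 7.3% and 3.27% of all tested genes. Eomes itself (chromosome 9 at 118478212 to 118486132, plus strand, GRCm38) stood at 170.3, 302, 298 and 209 TPM in NSC, 392, 393, 424 and 439.6 TPM in BP and 37.6, 40.9, 45.1 and 44.2 TPM in NBN. The 3 groups did not overlap, with BP highest and NBN lowest (-2.48 ± 0.21, adjusted p = 9.64e-15 for NBN against NSC). Since the reporter of Eomes was used to sort BP and NBN, its level in them is not independent of the sort. The proneural factor Neurog2 stood at 135.4, 184, 219.7 and 160.2 TPM in NSC and 62.1, 66.0, 60.1 and 63.9 TPM in NBN (-1.43 ± 0.18), Mfap4, a matrix protein, at 94.0 to 168 against 16.6 to 24.6 TPM (-2.62 ± 0.18), and Tac2, a tachykinin precursor, at 3.97 to 13.6 against 0 to 0.283 TPM (-3.06 ± 0.28). Tac2 was listed at 0 in 3 of the 4 NBN libraries. The list summed to 1222 to 1746 TPM in NSC, 2496 to 2629 TPM in BP and 465 to 516 TPM in NBN.
Of 16 proneural and neuronal bHLH genes, several of which are also in that list, 10 fell and none rose, against 7.3% and 3.27% of all tested genes. Nhlh1, a factor of early neuronal commitment, was among those that fell (-2.36 ± 0.15). The neuronal members Neurod2 and Neurod6 did not pass the minimum. Neurod6 stood at 958, 1017, 804 and 942 TPM in NSC and 1415, 1350.3, 1384 and 1445 TPM in NBN, without overlap but with a difference of 0.59 ± 0.20. Neurod2 stood at 405 to 473 against 695 to 706 TPM (0.67 ± 0.18).

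**Figure D2:**
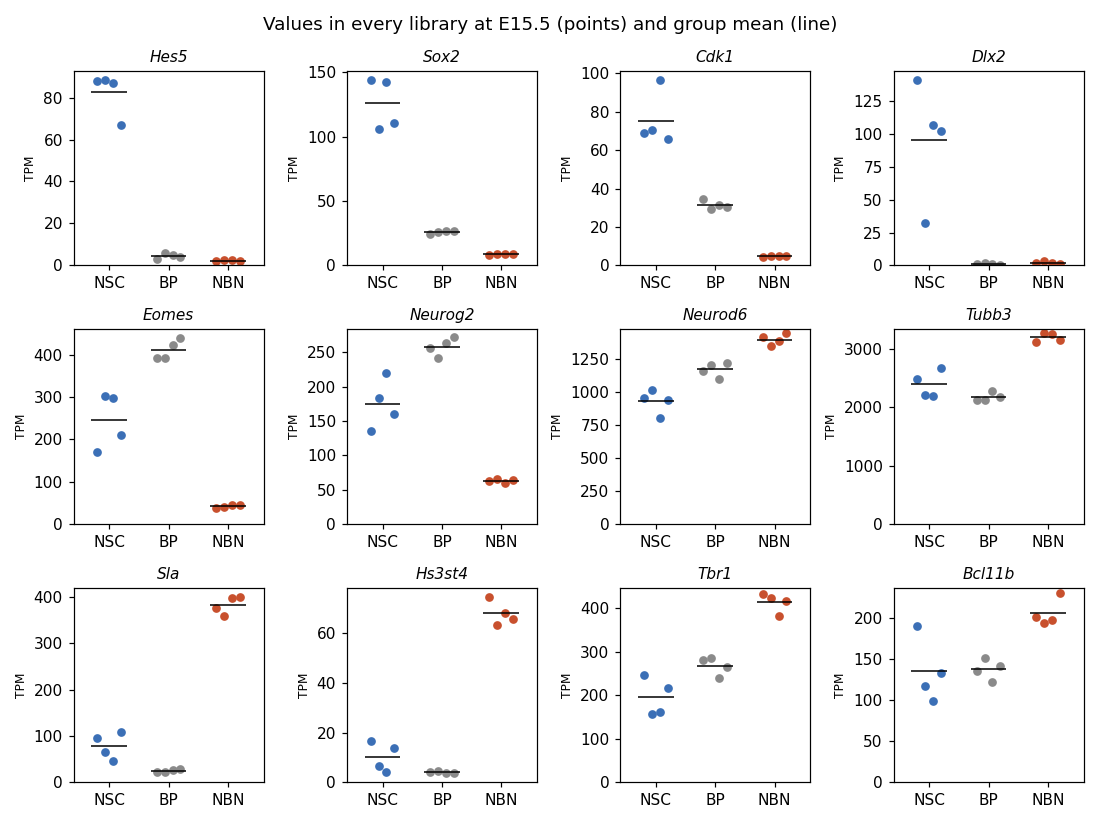
TPM (y axis, from 0) of 12 genes in each of the 4 NSC, 4 BP and 4 NBN libraries at E15.5, with group means as lines. Hes5 lies at 1.94 to 2.72 TPM in NBN and 66.9 to 88.4 TPM in NSC, Eomes is highest in BP, and Tubb3 lies at 2195 to 2672 TPM in NSC and 3122 to 3285 TPM in NBN.

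Neuronal transcripts were abundant on both sides, and most general neuron genes differed by less than the minimum. Of 24 postmitotic neuron genes 8 rose, against 3.27% of all tested genes, and none fell (median 0.62). In 23 of 24 the groups did not overlap, against 52.7% of all tested genes. The summed level of the list was 15214 to 17871 TPM in NSC, 16132 to 16650.5 TPM in BP and 21743 to 22319 TPM in NBN. Thus the libraries labelled NSC carried these transcripts at levels close to BP, and the part of that in the differences was not tested. In bulk samples, fewer cells of a type and less RNA per cell cannot be told apart.
Tubb3, neuronal tubulin, stood at 2497, 2213, 2195 and 2672 TPM in NSC and 3122, 3285, 3254 and 3159.7 TPM in NBN (0.425 ± 0.12). Dcx, a microtubule protein of migrating neurons, stood at 738, 538, 526 and 546 TPM in NSC and 847, 811, 877 and 1044 TPM in NBN (0.62 ± 0.24). Neither passed the minimum, and NSC replicate 1 was the highest NSC library for Dcx.
Members that rose were Mapt, the axonal protein tau, from 413 to 585 TPM in NSC to 1018 to 1144 TPM in NBN (1.14 ± 0.24), Rbfox1, a splicing factor (1.36 ± 0.22), and Stmn2, a regulator of growth cone microtubules, from 529 to 766 TPM in NSC to 1368 to 1427 TPM in NBN (1.14 ± 0.18). Nefl, a neurofilament, was at 10.4, 11.98, 10.1 and 12.1 TPM in NSC and 17.9, 23.1, 28.8 and 26.3 TPM in NBN (1.03 ± 0.23). Its call was lost without NSC replicate 1 or 3 or NBN replicate 3 or 4, with differences of 0.93 to 1.00. In the cytoskeleton list 5 of 24 rose and none fell (median 0.65), led by Dync1i1, a subunit of the dynein motor, at 50.9, 30.8, 29.9 and 68.2 TPM in NSC and 228, 186, 223 and 214 TPM in NBN (2.30 ± 0.25, adjusted p = 2.60e-11).

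Most of the 12 largest rises were in genes other than these general markers. Mc4r, a melanocortin receptor, stood at 8.82, 3.48, 3.59 and 8.57 TPM in NSC and 55.2, 46.9, 38.7 and 52.3 TPM in NBN (2.88 ± 0.29, adjusted p = 2.77e-12). Hs3st4, a heparan sulfate sulfotransferase, stood at 16.7, 6.50, 4.08 and 13.98 TPM in NSC and 74.5, 63.2, 68.1 and 65.4 TPM in NBN (2.78 ± 0.22). Nrg3, a neuregulin ligand of Erbb4, stood at 4.33, 5.16, 4.87 and 3.49 TPM in NSC and 40.7, 35.05, 31.3 and 36.5 TPM in NBN (2.76 ± 0.16). NSC replicates 1 and 4 were the 2 highest NSC libraries for Mc4r and Hs3st4, but not for Nrg3, where replicate 2 was highest. Sla, an adaptor protein (chromosome 15 at 66780819 to 66831829, minus strand, GRCm38), was the most abundant of these 12 genes, at 95.0, 66.2, 47.2 and 109 TPM in NSC, 22.7 to 28.7 TPM in BP and 377, 358, 399 and 401 TPM in NBN (2.33 ± 0.33 for NBN against NSC). BP were the lowest of the 3 groups.
The others were Lrrtm3, a synaptic adhesion protein (2.41 ± 0.24), Prickle1, of the planar cell polarity pathway (2.36 ± 0.21), Nfe2l3, a leucine zipper factor (2.19 ± 0.19), Nxph3, a neurexin ligand (2.19 ± 0.23), Adcy1, an adenylyl cyclase (2.15 ± 0.22), Tmtc1 (2.14 ± 0.20), Igfbp3, an insulin-like growth factor binding protein (2.14 ± 0.24), and Dync1i1.

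Receptors and synaptic genes rose in part, beside 3.27% of all tested genes that rose and 7.3% that fell. Of 28 glutamate and GABA receptor genes 15 rose and 1 fell (median 1.04). Grin2b, an NMDA receptor subunit, stood at 11.2, 7.23, 7.75 and 9.42 TPM in NSC and 34.7, 30.7, 35.9 and 49.6 TPM in NBN (1.96 ± 0.27). Gabra5, a GABA receptor subunit, rose from 1.24 to 3.88 TPM in NSC to 8.20 to 10.6 TPM in NBN (1.82 ± 0.17). Gria2, the AMPA receptor subunit, rose from 61.2 to 86.2 TPM in NSC to 134 to 172 TPM in NBN (1.07 ± 0.28), a call lost without NBN replicate 1 or NSC replicate 3, with differences just under 1. Grik1, a kainate receptor subunit, was the one that fell (-1.34 ± 0.16). At a pseudocount of 5 TPM, 9 of the list rose and none fell.
Of 25 synaptic vesicle and release genes 8 rose and 1 fell (median 0.76). Syt1, the calcium sensor of release, stood at 63.0, 34.1, 30.5 and 44.3 TPM in NSC and 89.2, 93.0, 96.8 and 108 TPM in NBN (1.20 ± 0.28), with NSC replicate 1 the highest of its group. Sv2b, a vesicle glycoprotein, rose from 3.57 to 5.99 TPM in NSC to 14.8 to 16.6 TPM in NBN (1.55 ± 0.17), Syt4 from 94.4 to 128 TPM in NSC to 278 to 314 TPM in NBN (1.43 ± 0.18) and Snap25, a SNARE protein, from 90.0 to 124.9 TPM in NSC to 214 to 261 TPM in NBN (1.09 ± 0.20). The Snap25 difference was 0.98 without NSC replicate 3. Nrxn3, a presynaptic adhesion protein, fell (-2.81 ± 0.36), and Slc17a6, a vesicular glutamate transporter, lay just short of the minimum, at 29.6 to 42.2 against 16.1 to 18.9 TPM (-0.998 ± 0.17), and passed it without NSC replicate 1 or 4 or NBN replicate 1 or 2. Of 27 sodium, potassium and calcium channel genes 6 rose and none fell, among them Cacna1e, a calcium channel (1.99 ± 0.27), and Scn2a1, a sodium channel (1.54 ± 0.18). Without NSC replicate 3 the channel count was 4, and at a pseudocount of 5 TPM it was 3.

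Layer genes moved in both directions, where 3.27% of all tested genes rose and 7.3% fell. Of 13 deep layer factors 6 rose and 2 fell (median 0.91). Tbr1, a factor of layer VI, stood at 247, 158, 163 and 217 TPM in NSC and 434, 423, 382 and 418 TPM in NBN (1.10 ± 0.16), a difference of 0.98 without the 2 libraries with most Xist. Ntsr1, a neurotensin receptor of layer VI neurons, rose from 6.89 to 11.4 TPM in NSC to 28.4 to 34.6 TPM in NBN (1.77 ± 0.20), Nr4a2, a nuclear receptor of the subplate, from 7.94 to 14.4 TPM in NSC to 26.4 to 46.1 TPM in NBN (1.64 ± 0.18) and Tle4, a corepressor of layer VI, from 23.5 to 41.0 TPM in NSC to 77.4 to 91.7 TPM in NBN (1.53 ± 0.13). Bcl11b, a factor of layer V, stood at 191, 117, 99.4 and 133 TPM in NSC and 202, 194, 197 and 230.3 TPM in NBN. The groups nearly touched, since NSC replicate 1 was close to the lowest NBN library, and the difference was under the minimum (0.64 ± 0.24). Fezf2, the factor of subcerebral neurons, was also under it (0.91 ± 0.17). Etv1, a marker of layer V, fell (-1.54 ± 0.28).
Of 13 upper layer genes 5 rose and 2 fell (median -0.046). Mef2c, an activity-dependent factor, stood at 50.3, 25.8, 25.3 and 43.5 TPM in NSC and 137, 127, 144 and 149 TPM in NBN (1.97 ± 0.26), and Rorb, a nuclear receptor of layer IV, rose from 1.96 to 3.60 TPM in NSC to 8.72 to 11.4 TPM in NBN (1.52 ± 0.16). Lhx2, which is also a progenitor factor, fell from 341 to 628 TPM in NSC to 151 to 196 TPM in NBN (-1.38 ± 0.13), and so did the netrin receptor Unc5d (-1.22 ± 0.22). Cux2, a marker of upper layers and their progenitors, overlapped between the groups, at 46.9 to 73.0 and 53.0 to 58.7 TPM. At a pseudocount of 5 TPM 3 of the upper layer list rose, and 1 deep layer factor fell there and without NSC replicate 3.
Of 28 axon guidance genes 3 rose and 4 fell, beside 3.27% and 7.3% of all tested genes. The Slit receptor Robo1 rose from 41.7 to 86.5 TPM in NSC to 164.8 to 188 TPM in NBN (1.56 ± 0.28), as did Ephb1, an ephrin receptor (1.28 ± 0.15). Ntn1, netrin 1, fell (-1.55 ± 0.27), and Robo2 was under the minimum (0.61 ± 0.19). Only 2 of the guidance list fell at a pseudocount of 5 TPM.

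Chromatin, splicing and glycolysis lists had calls near the share over all tested genes (10.6%, with 3.27% higher and 7.3% lower). Of 19 genes of the BAF complex switch 2 rose and none fell: Smarca2 (1.03 ± 0.12), an ATPase of the complex, and Dpf3 (1.15 ± 0.25), a subunit of neurons. Without NSC replicate 3 neither passed, and at a pseudocount of 5 TPM, without NSC replicate 2 or without the 2 libraries with most Xist 1 did. The progenitor subunit Actl6a (-0.92 ± 0.07) and the neuronal subunit Actl6b (0.79 ± 0.19) both stayed under the minimum, and the groups did not overlap for either. Of 23 splicing and RNA binding regulators 1 rose and 2 fell, but 1 fell after median ratio scaling, with array weights, at a pseudocount of 5 TPM, without NBN replicate 1 or 2 or NSC replicate 1 or 3, and without the 2 libraries with most Xist. Ptbp1, the splicing repressor of progenitors, stood at 165.1, 174, 214 and 159 TPM in NSC and 71.2, 63.1, 61.8 and 62.5 TPM in NBN (-1.44 ± 0.11). Ptbp2, its relative in neurons, overlapped between the groups, at 235 to 272 and 224 to 236 TPM.
No gene of the respiratory chain (21 tested, differences of -0.22 to 0.13) or of cholesterol synthesis (19 tested, -0.61 to 0.47) passed in limma. An unadjusted p below 0.05 was reached by 4 and 10 of them. Of 21 glycolysis genes Aldoc fell and Pfkp, a phosphofructokinase, rose (1.60 ± 0.16). Ldha, lactate dehydrogenase, was under the minimum, at 397 to 447 against 365 to 390.3 TPM (-0.15 ± 0.09). Of 21 matrix and integrin genes 6 fell, led by Tnc, a radial glial matrix glycoprotein (-3.14 ± 0.25), and 4 rose, among them 2 collagens. Without NSC replicate 2, or without the 2 libraries with most Xist, 1 rose. With a pseudocount of 5 TPM 1 rose and 2 fell.

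**Figure D3:**
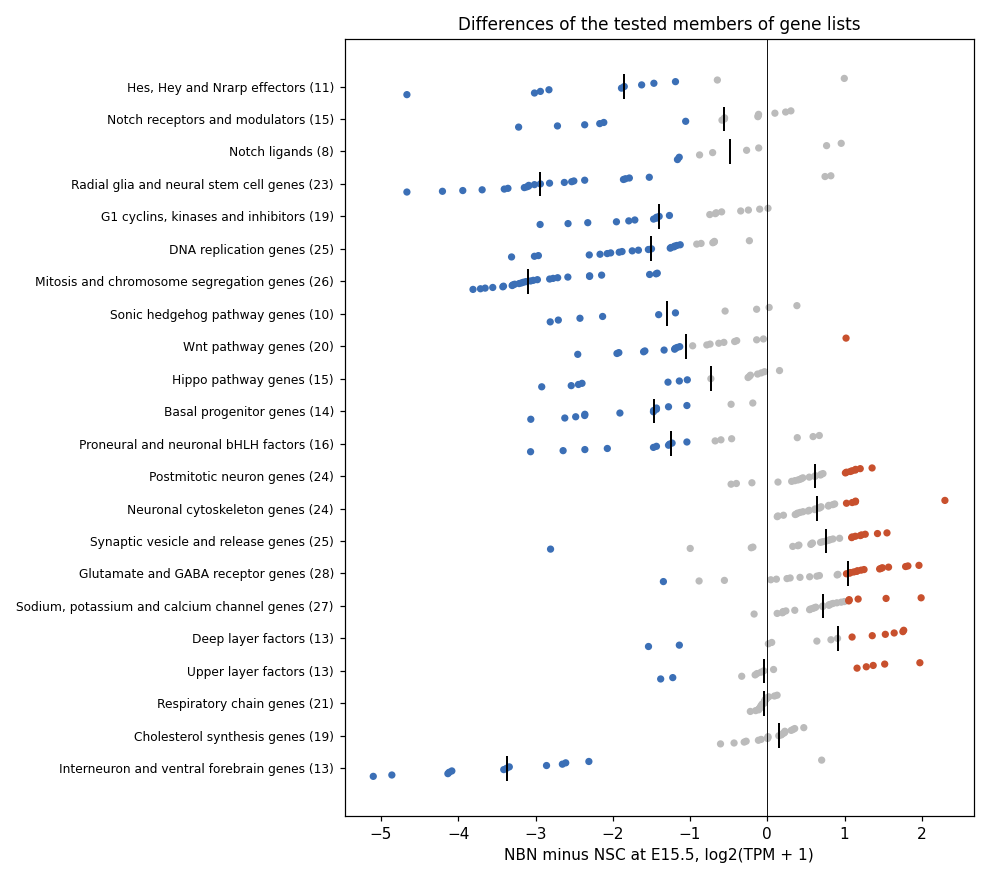
Difference of NBN minus NSC at E15.5 on log2(TPM + 1) (x axis) for each tested member of 22 gene lists (number tested in parentheses). Each point is a gene, blue for lower, orange for higher and grey for not called, and black bars are list medians. Mitosis genes lie wholly below 0, and respiratory chain genes lie close to 0.

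Genes of interneurons and the ventral forebrain had the lowest median of any list. Of 13 genes 12 fell (median -3.37), against 7.3% of all tested genes, and Npy, a neuropeptide, did not pass (0.70). The transcription factor Dlx1 (chromosome 2 at 71528113 to 71533981, plus strand, GRCm38) stood at 177, 37.2, 112 and 90.7 TPM in NSC and 0.833, 3.39, 1.14 and 1.95 TPM in NBN (-5.10 ± 0.44, adjusted p = 1.64e-14). Dlx2 stood at 141, 32.0, 107 and 102 TPM in NSC and 1.501, 3.04, 2.10 and 1.35 TPM in NBN (-4.86 ± 0.39). NSC replicate 2, which also held 103.2 TPM of Xist beside Y-linked transcripts, was the lowest NSC library for both Dlx genes, and still above every NBN library. Also among the 12 largest falls were Gad1, the enzyme that makes GABA (-4.13 ± 0.40), and the factors Dlx5 (-4.12 ± 0.37) and Sp9 (-3.91 ± 0.34). The list summed to 862, 233, 467 and 561 TPM in NSC replicates 1 to 4, to 20.5 to 25.5 TPM in BP and to 43.4 to 47.7 TPM in NBN. The defining markers were present in every NSC library, Gad2 at 6.49 to 28.9 TPM and Lhx6 at 15.8 to 52.6 TPM.

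Markers of other cells moved in both directions, where 3.27% of all tested genes rose and 7.3% fell. Oligodendrocyte precursor genes fell in 4 of 5 tested (of 11 listed), with Olig2 (-2.64 ± 0.28) and Sox8 (-3.25 ± 0.19), and their sum ran from 32.2 to 66.9 TPM in NSC and from 5.60 to 8.89 TPM in NBN. Astroglia genes fell in 4 of 9, led by Aldh1l1 (-3.19 ± 0.21), and rose in 1, Sparcl1, a secreted matricellular protein (1.42 ± 0.20). The defining markers Gfap and Aqp4 stayed at or below 1.11 TPM in all 8 libraries.
Erythroid genes rose in 4 of 6, all adult globins, near-identical copies between which reads can be split: Hbb-bs stood at 25.5, 26.2, 133 and 89.4 TPM in NSC and 162, 278, 187 and 227 TPM in NBN (1.95 ± 0.59). The list summed to 84.8, 89.1, 420.3 and 269.6 TPM in NSC and 493, 779, 593 and 709 TPM in NBN. Alas2, the heme synthesis enzyme of red cells, was at 0.636 to 1.64 TPM in NSC and 1.41 to 2.03 TPM in NBN. Without NSC replicate 1, without NSC replicate 2 or without the 2 libraries with most Xist, 2 genes of the list rose. Meninges and choroid plexus genes rose in 3 of 7, such as Col3a1, a fibrillar collagen, from 0.480 to 1.05 TPM in NSC to 3.40 to 6.89 TPM in NBN (1.62 ± 0.44). At a pseudocount of 5 TPM none of the list passed, and without the 2 libraries with most Xist 1 did.
No microglial (2 of 11 tested), endothelial (9 of 12) or ependymal (2 of 7) gene passed in limma, while 0, 9 and 1 had an unadjusted p below 0.05. At a pseudocount of 0.1 TPM or after quantile normalization 4 endothelial genes rose, and without NBN replicate 3, 2 did. Endothelial sums were 17.0 to 27.2 TPM in NSC and 29.6 to 44.9 in NBN, and microglial sums 8.79 to 24.0 and 16.8 to 20.3 TPM. Of 8 Cajal-Retzius genes only the chemokine receptor Cxcr4 changed, downwards (-1.34 ± 0.15). Of 11 genes induced by tissue dissociation 3 fell, such as Fos, an immediate early factor, at 8.68, 23.9, 18.0 and 11.7 TPM in NSC and 7.63, 7.03, 5.43 and 4.54 TPM in NBN (-1.14 ± 0.35). Without NSC replicate 2 none of the list passed, and 1 did at a pseudocount of 5 TPM or without the 2 libraries with most Xist. The part of these other cells in the differences was not tested.

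**Figure D4:**
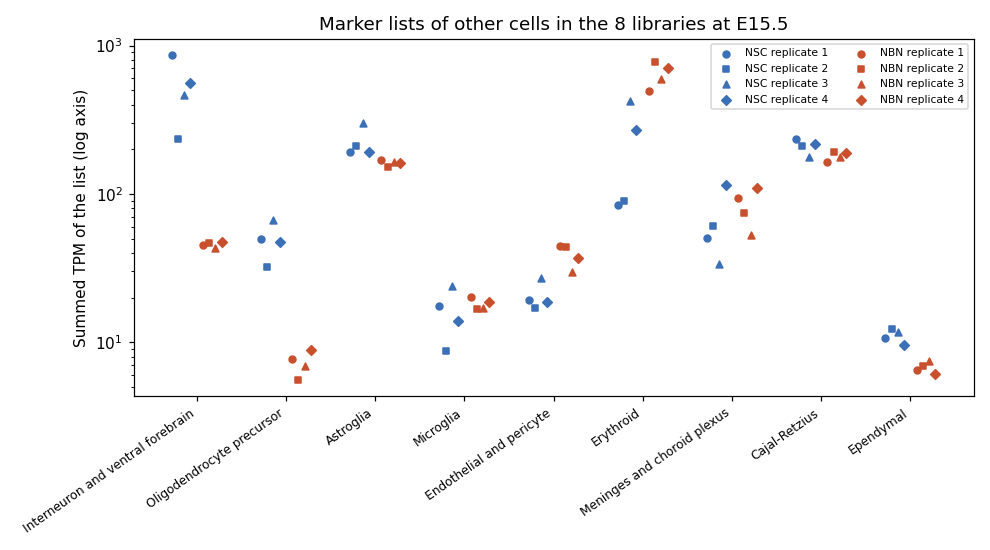
Summed TPM (y axis, log scale) of 9 marker lists of other cells in each of the 4 NSC (blue) and 4 NBN (orange) libraries at E15.5, with a symbol for each replicate. The interneuron list lies at 233 to 862 TPM in NSC and 43.4 to 47.7 TPM in NBN, and the erythroid list is higher in each NBN library than in each NSC library.

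BP placed the called genes differently on the 2 sides. Of the 997 genes lower in NBN, the BP mean lay between NSC and NBN in 739, above NSC in 170 and below NBN in 88. Of the 446 genes higher in NBN, it lay below the NSC mean in 320, between in 120 and above NBN in 6. Sla and Mef2c were lower in BP than in NSC: BP held 25.04 ± 2.80 and 10.9 ± 0.313 TPM against 79.4 ± 28.0 and 36.2 ± 12.6 in NSC (mean ± SD, 4 libraries each). For the general neuron genes the median BP minus NSC difference was 0.07, and for receptor genes -0.33. These comparisons share the NSC libraries, so the values are set side by side only.

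The E15.5 difference was then compared with the mean NBN minus NSC difference at E16.5, E17.5, E18.5 and day 1 after birth (PN), in 1 fit, to ask whether it was larger or smaller. Of 13656 genes 1441 (10.6%) differed, 938 higher (6.87%) and 503 lower (3.68%) at E15.5. The split depended on scaling, since 65.1% of the called genes were higher with TPM as deposited, 53.9% after median ratio scaling and 48.1% after quantile normalization. The median over all genes moved from 0.12 to 0.01 and to -0.02, so a difference near 0 has no clear sign. Against E16.5 alone 1069 genes differed, 983 of them higher and 86 lower, and only 249 were among the 1441.
Among general neuron genes a part was less raised at E15.5 than over the mean of the later stages. In the postmitotic neuron list 11 of 24 were lower in this contrast and none was higher, in the cytoskeleton list 13 of 24 and in the synaptic list 10 of 25, again with none higher. With median ratio scaling or quantile normalization, 12 of the postmitotic list were lower. The median NBN minus NSC difference of the postmitotic list was 0.62 at E15.5, 0.37 at E16.5, 1.89 at E17.5, 1.85 at E18.5 and 2.09 at PN. The medians from E17.5 on were larger and that at E16.5 was not. Set against E16.5 alone, 3 genes of the list were higher and 1 lower. Tubb3 differed by -1.69 ± 0.14, Neurod6 by -1.90 ± 0.23 and Actl6b by -1.94 ± 0.22 from the later mean. Mean Tubb3 in NSC was 2394 TPM at E15.5 and 810.1 TPM at E17.5, and in NBN 3205 and 3241 TPM.
The 6 lowest by this measure were Grp, a gastrin-releasing peptide (-3.43 ± 0.34), Cck, cholecystokinin (-3.41 ± 0.41), Sst, somatostatin (-3.31 ± 0.51), Reln, the secreted protein of Cajal-Retzius cells (-2.99 ± 0.29), Cntn2, an axonal adhesion protein (-2.91 ± 0.32), and Nrp1, a semaphorin receptor (-2.78 ± 0.28). Against E16.5 alone Sst and Reln were called in the same direction, Grp and Cntn2 kept the direction without passing, and Cck and Nrp1 had the opposite sign. At E15.5 itself only Sst among the 6 was called, at 98.9, 29.9, 20.7 and 67.6 TPM in NSC and 2.75, 2.89, 3.19 and 4.86 TPM in NBN.
The 6 highest were Pdgfra, a receptor of oligodendrocyte precursors (3.44 ± 0.23), Grm3, a glutamate receptor (3.27 ± 0.18), Sparcl1 (3.24 ± 0.24), Rgs16, a regulator of G proteins (3.18 ± 0.18), Hepacam, a glial adhesion protein (3.16 ± 0.17), and Serpine2, a protease inhibitor (3.15 ± 0.21). Pdgfra averaged 3.02 TPM in NSC at E15.5 and 309 TPM in NSC at PN, while NBN means were 0.730 and 4.16 TPM. Against E16.5 alone Pdgfra, Sparcl1, Rgs16 and Hepacam were called in the same direction and Grm3 and Serpine2 were not called. Of the 53 genes named here or in the closing section as differing by stage, 12 were also called in that direction against E16.5 alone, 25 kept the direction without passing, and 16 had the opposite sign.

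**Figure D5:**
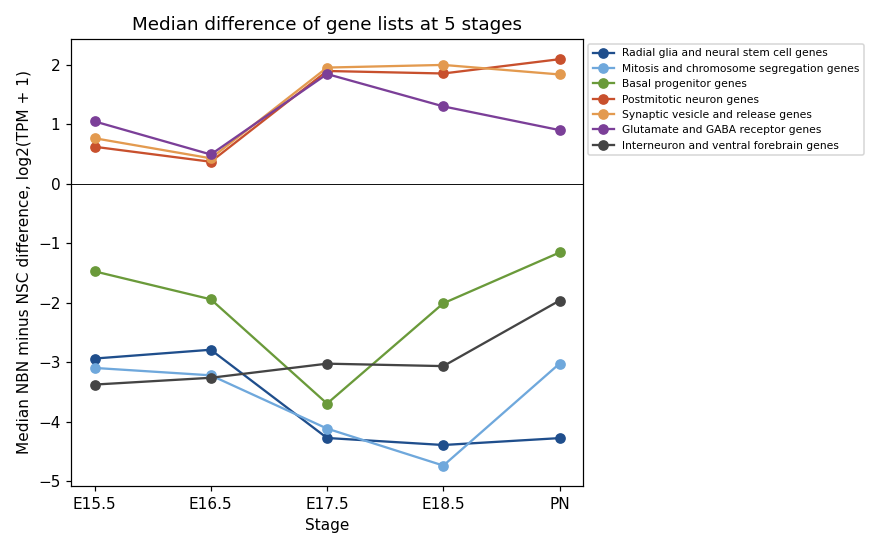
Median NBN minus NSC difference on log2(TPM + 1) (y axis) of 7 gene lists at 5 stages (x axis), with 0 marked. The postmitotic neuron list lies at 0.62 at E15.5 and 2.09 at PN, and the mitosis list is at -3.09 at E15.5 and -3.02 at PN.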

How the data were processed

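Dorsal cortices were dissociated, GFP-positive cells were sorted, and their RNA was made into libraries with a TruSeq kit that does not mark strand and read as short single ends, per the labels' protocols. Reads of a gene and its antisense partner therefore cannot be told apart. The authors deposited TPM for each gene. The submitters' processing notes name kallisto 0.43.0 and the builds GRCm38.p2 and mm10. TPM keep no depth, so no interval or floor was computed, and a 0 means only listed at 0.

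Columns were matched to samples by their names. Tests used log2(TPM + 1), which understates changes of low genes. A model with a mean for each of 23 groups of cell type and stage was fitted over all 70 libraries (47 residual degrees of freedom) with limma 3.58.1 in R 4.3.3, with moderated variances and a trend. Adjusted p-values are Benjamini-Hochberg over all 13656 genes, and values after ± are standard errors of log2 differences unless called SD. On simulated data with the spread of these genes, 100% of the 100 genes given a shift of 1.5 (log2) were called, both for the E15.5 difference and for its comparison with later stages. The simulated means of low genes were raised to a floor well above the minimum of 1 TPM, so recovery of genes below that floor was not tested. Nor was recovery of shifts nearer to the minimum difference of 1.

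The members and lists were chosen with earlier results of these data known. Named genes were the 12 largest calls in each direction (mean of 20 TPM or more in the higher group, no overlap), a fixed set of 36 genes, list members (up to 4 largest calls per direction and up to 2 not called in each list), and the 6 largest differences from later stages in each direction, overlap not considered. A few of the genes so chosen are not reported here, though list counts include them. Coordinates are from GENCODE (GRCm38), matched by identifier, and promoters from RefSeq. Python 3.11.15 with pandas 2.3.3 made the counts. Alternatives covered pseudocount, filter, scaling, variance model, library weights, minimum difference, replicate blocks and each of the 8 E15.5 libraries left out. Leaving out the pair of libraries richest in Xist, PN, or each of the 23 later NSC and NBN libraries in turn was chosen after seeing the data.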

Additional observations from a re-analysis of the deposited data

Results flagged for a closer look

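Single libraries stood apart from the other 3 of their group in 17 of 256 groups of 4 checked for the named genes, by Dixon's test of the gap to the nearest library, where chance flags about 1 group in 20. They were Hes5 at 66.9 TPM in NSC replicate 4 (others 87.0 to 88.4), Cdk1 at 96.7 TPM in NSC replicate 3 (others 65.6 to 70.3), Slc1a3 at 134 TPM in NSC replicate 3 (others 69.2 to 73.6), Mki67 at 4.42 TPM in NBN replicate 4 (others 3.21 to 3.34), Mcm2 at 87.6 TPM in NSC replicate 3 (others 62.7 to 64.4), Dcx at 738 TPM in NSC replicate 1 (others 526 to 546), Snap25 at 90.0 TPM in NSC replicate 3 (others 122 to 124.9), Ptbp1 at 71.2 TPM in NBN replicate 1 (others 61.8 to 63.1), Ptbp2 at 272 TPM in NSC replicate 1 (others 235 to 239.6), Cck at 11.8 TPM in NSC replicate 3 (others 17.4 to 18.51), Jag1 at 7.94 TPM in NSC replicate 3 (others 5.58 to 5.89), Tk1 at 51.2 TPM in NSC replicate 3 (others 31.0 to 33.6), Mcm3 at 69.96 TPM in NSC replicate 3 (others 48.3 to 50.1), Cdc20 at 106 TPM in NSC replicate 3 (others 76.5 to 78.7), Tac2 at 0.283 TPM in NBN replicate 2 (others 0 to 0), Gabra5 at 3.88 TPM in NSC replicate 1 (others 1.24 to 1.65) and Fgf15 at 17.7 TPM in NSC replicate 1 (others 3.27 to 4.73). NSC replicate 3 accounted for 9 of them.

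The NBN minus NSC difference at E15.5 differed from the mean later difference in 53 named genes, by limma's test of the difference itself. Values are log2, positive where E15.5 was higher. Among stem cell and progenitor genes it was 1.83 for Eomes, 1.27 for Notch1, 1.05 for Lfng, 1.49 for Jag1, 2.03 for Slc1a3, 1.31 for Mki67, 1.49 for Ccnd1, 1.79 for Ccnd2, -1.52 for Cdkn1c, 1.02 for Cdkn2c, 1.66 for Id1, 1.88 for Dusp6, 1.77 for Tnc and -1.02 for Lhx2. Among neuronal genes it was -1.95 for Neurod2, -1.90 for Neurod6, -1.69 for Tubb3, -1.63 for Mapt, -1.79 for Nefl, -1.84 for Stmn2, -1.56 for Rbfox1, -1.81 for Syt1, -1.90 for Syt4, -1.18 for Slc17a6, -1.94 for Actl6b, -1.495 for Dync1i1, -2.09 for Sla, 1.82 for Mc4r, 2.91 for Lrrtm3, 1.82 for Prickle1, 1.46 for Igfbp3, -1.67 for Cux2, -1.59 for Mef2c, 2.25 for Rorb, -1.79 for Ntsr1, 1.40 for Tle4, 1.22 for Ntn1, -2.91 for Cntn2, -2.78 for Nrp1, -3.43 for Grp, -3.41 for Cck, -2.99 for Reln, 3.27 for Grm3 and 3.18 for Rgs16. Among genes of interneurons and glia and other genes it was -1.10 for Gad1, -3.31 for Sst, 3.44 for Pdgfra, 1.68 for Olig2, 1.73 for Aldh1l1, 3.24 for Sparcl1, 3.16 for Hepacam, 3.15 for Serpine2, 1.22 for Ntn1, 3.27 for Grm3, 3.18 for Rgs16 and 1.71 for Fos. Set against E16.5 alone, the sign was opposite for Gad1, Mc4r, Prickle1, Igfbp3, Ccnd1, Neurod2, Cux2, Cck, Nrp1, Lfng, Rbfox1, Ntsr1, Tle4, Mef2c, Ntn1 and Slc17a6.

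Of the 53, 9 lost the call in at least 1 of the 42 other settings run, and none changed sign there. Gad1 lost it in 17 of them, which include the removal of NBN replicate 1, 2, 3 or 4 or of NSC replicate 1 or 4 at E15.5, array weights, no filter, a pseudocount of 5 TPM and the removal of PN. Cdkn2c lost it in 14 and Lfng in 12, both under median ratio scaling, quantile normalization, the block within stage and a pseudocount of 0.1 TPM, Cdkn2c also without NBN replicate 2 or 3 or NSC replicate 1 or 2 at E15.5, and Lfng without NBN replicate 1 or 2 or NSC replicate 1 or 4 at E15.5, with array weights and without PN. Lhx2 lost it in 7, among them without NBN replicate 1 or NSC replicate 2 or 3 at E15.5 and without PN. Ntn1 lost it without NSC replicate 2 at E15.5 or without PN, Igfbp3 and Slc17a6 without PN, and Olig2 and Aldh1l1 at a pseudocount of 0.1 TPM. Gad1, Lfng, Cdkn2c and Lhx2 also lost it when certain single libraries of the later stages were removed. These were NBN replicates 2 and 3 and NSC replicate 4 at E16.5, NBN replicate 1 at E17.5 and E18.5, and NBN replicate 1 and NSC replicate 3 at PN for Gad1. For Cdkn2c they were NBN replicate 3 and NSC replicate 4 at E16.5, NBN replicate 2 and NSC replicates 2 and 3 at E17.5, and NBN replicate 2 at PN. For Lfng they were NBN replicate 1 at E16.5 and NBN replicate 2 at E18.5, and for Lhx2 NBN and NSC replicate 1 at E16.5 and NBN replicate 2 at PN.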

How the results depend on the processing

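Depth is unknown, so the precision of low values could not be set. The count of 1443 genes for NBN against NSC was 737 at a pseudocount of 5 TPM and 7126 with no minimum difference, where fewer and more genes reach the threshold by construction. With 1 of the 8 E15.5 libraries left out it ran from 1290 to 1573. The count of 1441 genes for E15.5 against later stages was 722 at a pseudocount of 5 TPM and 7207 with no minimum difference, 1326 to 1588 with 1 of the 8 E15.5 libraries left out, and 1379 to 1498 with 1 of the 23 later NSC and NBN libraries left out. The last leaves a lone library of NBN at E17.5 or PN, assumed to vary like the other groups. All other settings run stayed within 1.5 times of both counts.

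Of 128 named genes, 94 kept direction and call in each setting run. In all, 2494 of 2554 gene and setting pairs were the same, 35 lost the call, 20 gained it and 5 changed sign. The last were uncalled: Cdkn1c was -0.0025 with array weights, -0.016 without NBN replicate 2, -0.014 without NBN replicate 3 and -0.071 without NSC replicate 3, and Cux2 was 0.010 without NSC replicate 1. With 1 library left out Cdkn1c ran from -0.071 to 0.050 and Cux2 from -0.20 to 0.010. Without NSC replicate 3, 8 named calls were lost. The estimation of array weights stopped before its tolerance.

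Replicate numbers gave no sign of pairing in the values. Same-numbered NSC and NBN deviations correlated at 0.076, -0.026, 0.069 and -0.0037 across genes, and not every library correlated best with its own number. Such correlations cannot tell whether libraries were handled in pairs. With the replicate number as a replicate block over the 8 libraries 1447 genes were called, the number these 8 gave without it, and with a replicate block within stage the comparison with later stages gave 1366. The equal count of 1447 cannot tell whether libraries were paired. A block leaves the differences between groups of equal size unchanged, and in the main fit 1443 of the 1448 genes past the minimum difference were called.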
